A study of Canis lupus familiaris with 6 samples.

Results

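The genes described here belong to the mammalian circadian clock and to the PAR bZIP family of transcription factors that the clock drives. They were chosen by name as 10 genes, PER1, PER2, PER3, CRY1, CRY2, CLOCK, DBP, TEF, HLF and NFIL3, and every probe set of the array whose annotation gave 1 of these as its single gene symbol was taken. This gave 19 of 42924 probe sets, which stood for 9 of the 10 genes and for 9 of the 15115 genes with a single-symbol probe set. No probe set carried DBP as its single symbol, so DBP was not analysed here. PER1 had 6 probe sets, NFIL3 had 3, PER2, PER3 and CLOCK had 2 each, and CRY1, CRY2, TEF and HLF had 1 each.

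In the clock, CLOCK and its partner BMAL1 (gene symbol ARNTL on this array) switch on the PER and CRY genes, and the PER and CRY proteins return to block CLOCK and BMAL1, which closes a loop of about a day. The same activators drive DBP, TEF and HLF, 3 activators that bind DNA elements called D-boxes, while NFIL3, also known as E4BP4, binds the same elements as a repressor. In the kidney the clock is known for its control of sodium handling, and the PAR bZIP factors for their control of enzymes that process foreign compounds.

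RNA came from MDCKII, a dog kidney epithelial cell line that forms polarized layers. In the 3D group (3 arrays) cells formed cysts on a thin Matrigel layer, an extract of basement membrane (100 µl spread on each 60 mm dish), in MEM that also held 2% Matrigel; in the 2D group (3 arrays) they grew without Matrigel as a confluent monolayer on plastic. Both groups were the same unmodified line, per the labels, and were harvested 36 h after plating. The study's design asks which genes are raised in 3D, as candidates for roles in forming a lumen. All arrays therefore come from 1 time after plating, no source used here gives the time of day, and nothing below measures a rhythm. In bulk RNA such as this, fewer cells with a transcript and less of it per cell cannot be told apart.

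The deposited values are log2 values, and they lie on 2 scales. The arrays of replicates 2 and 3 had medians of 7.06 to 7.08 over all probe sets and 0 values below 0, whereas the replicate 1 arrays had medians of 5.26 in 3D and 5.42 in 2D, with 413 and 246 values below 0. The test therefore used replicates 2 and 3, with 2 arrays per group, and the replicate 1 pair gives 1 untested 3D minus 2D difference per probe set. KRT18, the epithelial marker with the highest mean, read 13.9 and 13.7 in 3D and 13.8 and 14.0 in 2D on replicates 2 and 3. On replicate 1 it read 13.3 in 3D and 13.4 in 2D. The other epithelial markers were dimmer, and no call of presence was made for any of them. Of 13 epithelial markers 0 passed the limma test, against 7.28% of all genes, and their differences ran from -0.535 to 0.83. An unadjusted limma p under 0.05 was found for 4 of them, against 23.5% of all probe sets. Beside the same shares, 0 of 12 fibroblast, 10 endothelial and 11 leukocyte markers passed, and 2 leukocyte markers had an unadjusted limma p under 0.05. The means over each of these lists lay between 6.16 and 6.48 on the 3D arrays of replicates 2 and 3. On the 2D arrays of these replicates they lay between 6.15 and 6.45. Single markers lay above or below these means. The endothelial marker CDH5 read 8.34 and 8.47 in 3D and 8.34 and 8.43 in 2D. The leukocyte marker CD14 read 8.32 and 8.09 in 3D and 7.82 and 7.91 in 2D.

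On replicates 2 and 3, few clock and PAR bZIP probe sets differed between cysts and monolayers by the test used. Of the 19 probe sets, 1 passed the limma test at an adjusted p below 0.05. It was an NFIL3 probe set, lower in 3D, and 0 were higher. Over all 42924 probe sets 6.61% passed (3.65% higher and 2.96% lower in 3D), so that 1 of 19 is close to the share on the whole array. With each gene taken at its probe set of the highest mean, 0 of the 9 genes passed, against 7.28% of all genes (4.17% higher and 3.12% lower in 3D). At an unadjusted p under 0.05 there were 3 of the 19 probe sets, all of NFIL3, against 23.5% of all probe sets. The median difference was 0.015 over the 19 probe sets and -0.005 over all probe sets, on the log2 scale.

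**Figure D1:**
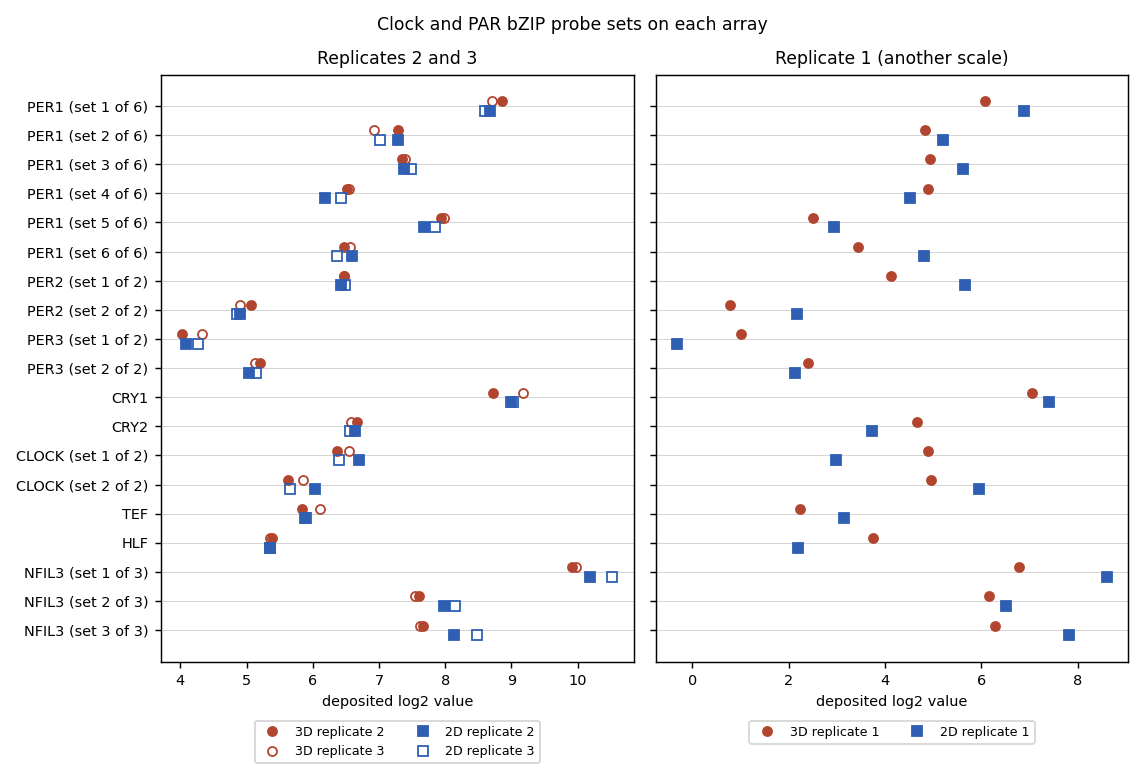
Deposited log2 value (horizontal axis) of each clock and PAR bZIP probe set (rows) on every array, with replicates 2 and 3 on the left and the replicate 1 pair, which has another scale, on the right. Red circles are 3D arrays and blue squares are 2D arrays; on the left the 3 NFIL3 rows have both 3D arrays below both 2D arrays, and rows of 1 gene with several probe sets are numbered in the order of the annotation.

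NFIL3, the repressor at D-boxes, was lower in 3D on each of its 3 probe sets, and the 3D and 2D arrays did not overlap on any of them, as was so for 51.8% of all probe sets. As a gene, NFIL3 did not pass. The probe set CfaAffx.4141.1.S1_s_at read 7.67 and 7.62 in 3D against 8.13 and 8.48 in 2D on replicates 2 and 3. Its log2 difference was -0.66 (SE 0.14, 95% interval -1.002 to -0.318, n = 2 arrays per group, limma adjusted p = 0.0492), which is 1.58-fold lower in 3D. The difference exceeded the gaps between replicates of 1 group, 0.05 in 3D and 0.35 in 2D.

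The other NFIL3 probe sets moved less and did not pass. CfaAffx.4141.1.S1_at read 7.61 and 7.55 in 3D and 7.98 and 8.14 in 2D, a difference of -0.48 (SE 0.108, 95% interval -0.744 to -0.216, limma adjusted p = 0.0572). It shares the stem of its name with the probe set that passed, so that the pair may not be independent readings. Cfa.6371.1.A1_at, the NFIL3 probe set with the highest mean, read 9.92 and 9.98 in 3D and 10.19 and 10.52 in 2D, a difference of -0.405 (SE 0.136, 95% interval -0.738 to -0.0724, limma adjusted p = 0.143). As the mean of the 3 probe sets NFIL3 differed by -0.515 (SE 0.118, 95% interval -0.803 to -0.227, limma adjusted p = 0.0554), or 1.43-fold lower in 3D, and did not pass.

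On the replicate 1 scale NFIL3 was also lower in 3D on all 3 probe sets. The values were 6.28 in 3D and 7.82 in 2D on CfaAffx.4141.1.S1_s_at, 6.16 in 3D and 6.52 in 2D on CfaAffx.4141.1.S1_at, and 6.78 in 3D and 8.61 in 2D on Cfa.6371.1.A1_at. The differences were -1.54, -0.36 and -1.83, and carry no test. Differences of at least 1 in size were common in that pair, at 33.9% of all probe sets, and the range between the 5th and the 95th percentile of all probe sets was -2.28 to 1.94.

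The call on NFIL3 was narrow. The limma adjusted p of CfaAffx.4141.1.S1_s_at was 0.0532 under trend and robust priors and 0.183 with the replicate block, and ranged from 0.206 to 0.428 when any one of the 4 arrays (3D or 2D, replicate 2 or 3) was left out. With the block or with 1 array left out, 0 of 42924 probe sets passed on the whole array. The Entrez identifier that the platform annotation gives for these probe sets was not found in the gene table of the dog assembly UU_Cfam_GSD_1.0, which lists NFIL3 under another identifier, so that the name rests on the platform annotation.

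Added poly-A spike-in controls were brightest on 3D replicate 2, with a mean over 36 probe sets of 9.83 there and 8.98 on 3D replicate 3, against 8.81 and 8.86 on 2D replicates 2 and 3. The 3′ minus 5′ difference of an actin control was 0.10 and 0.32 in 3D against -0.07 and -0.02 in 2D, and that of a second actin control was 0.57 and 0.76 in 3D against 0.71 and 0.89 in 2D. For GAPDH it was 0.31 and 0.40 in 3D against 0.20 and 0.16 in 2D on 1 control, and 0.16 and 0.12 in 3D against 0.14 and 0.13 in 2D on another. The first actin and the first GAPDH control thus separated the groups, and the other controls overlapped between them. On the replicate 1 scale these differences were -0.08 in 3D and -0.29 in 2D for the first actin control, 2.9 in 3D and 2.17 in 2D for the second, 1.47 in 3D and 1.67 in 2D for the first GAPDH control, and 0.50 in 3D and 0.52 in 2D for the other, and the spike-in mean was 8.49 in 3D and 7.66 in 2D. The part of the spike-in and 3′ minus 5′ differences in the NFIL3 result was not tested.

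**Figure D2:**
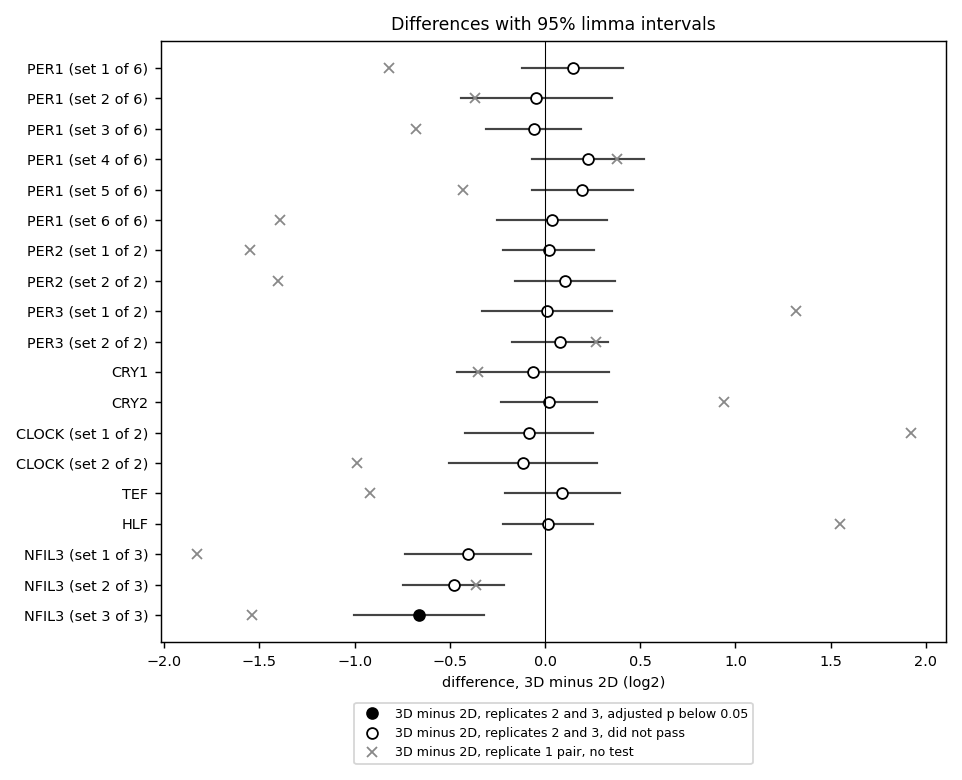
Difference 3D minus 2D on the log2 scale (horizontal axis) for each clock and PAR bZIP probe set (rows). Circles are limma estimates on replicates 2 and 3 with 95% intervals (lines), filled where the adjusted p was below 0.05, and crosses are the untested replicate 1 pair; the intervals of the 16 probe sets other than NFIL3 all hold 0 and span -0.505 to 0.519 in all, while the crosses reach from -1.83 to 1.92.

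The PER genes encode the period proteins, the rapidly turning over arm of the repressor. PER1, which is also induced directly by glucocorticoid and cAMP signals, did not pass on any of its 6 probe sets. Their differences ran from -0.06 to 0.225, with limma adjusted p from 0.332 to 0.916, and as their mean PER1 differed by 0.0825 (SE 0.0881, 95% interval -0.132 to 0.297, limma adjusted p = 0.642).

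On 3 of the 6 PER1 probe sets both 3D arrays lay above both 2D arrays. CfaAffx.26004.1.S1_at read 6.52 and 6.54 in 3D and 6.18 and 6.43 in 2D, CfaAffx.26006.1.S1_s_at read 7.94 and 7.98 in 3D and 7.68 and 7.85 in 2D, and CfaAffx.25981.1.S1_at read 8.86 and 8.70 in 3D and 8.67 and 8.60 in 2D. Against the 51.8% of all probe sets whose groups did not overlap, this held for 6 of the 19 described here, 3 of NFIL3 and 3 of PER1. The other PER1 probe sets overlapped. CfaAffx.25988.1.S1_at read 7.29 and 6.92 in 3D and 7.28 and 7.02 in 2D, and CfaAffx.25989.1.S1_s_at read 7.34 and 7.39 in 3D and 7.37 and 7.48 in 2D. CfaAffx.26008.1.S1_s_at read 6.47 and 6.56 in 3D and 6.59 and 6.37 in 2D.

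In replicate 1, 5 of the 6 PER1 probe sets were lower in 3D. Their differences ran from -1.39 on CfaAffx.26008.1.S1_s_at to 0.38 on CfaAffx.26004.1.S1_at. CfaAffx.26004.1.S1_at was also the PER1 probe set with the highest difference on replicates 2 and 3. CfaAffx.25981.1.S1_at, the brightest of them on replicates 2 and 3, read 6.07 in 3D and 6.89 in 2D there. The direction of PER1 thus differed between the scales for CfaAffx.25981.1.S1_at, CfaAffx.26006.1.S1_s_at and CfaAffx.26008.1.S1_s_at, and the difference between the scales was not tested. In replicate 1 CfaAffx.26006.1.S1_s_at read 2.51 in 3D and 2.94 in 2D. Both values lay below the lower quartiles of these arrays (3.38 in 3D, 3.52 in 2D), so that its direction there is uncertain.

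PER2, whose protein stability helps to set the pace of the clock, read 6.47 and 6.47 in 3D and 6.42 and 6.48 in 2D on CfaAffx.19276.1.S1_at. This difference was 0.02 (SE 0.0979, 95% interval -0.219 to 0.259, limma adjusted p = 0.943). On CfaAffx.19282.1.S1_at PER2 read 5.06 and 4.90 in 3D and 4.90 and 4.85 in 2D, below the arrays' lower quartiles (5.64 to 5.67), with a difference of 0.105 (limma adjusted p = 0.639). The replicate 1 pair was lower in 3D on both, at 4.12 in 3D and 5.67 in 2D and at 0.77 in 3D and 2.17 in 2D, which are differences of -1.55 and -1.40. The values of 0.77 and 2.17 lay below the lower quartiles of the replicate 1 arrays (3.38 in 3D, 3.52 in 2D).

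Both probe sets of PER3, the period gene that is dispensable for the core loop in mice, lay below the arrays' lower quartiles, so that the size of any difference is uncertain. CfaAffx.30082.1.S1_s_at read 5.21 and 5.13 in 3D and 5.04 and 5.14 in 2D (difference 0.08, 95% interval -0.172 to 0.332, limma adjusted p = 0.721). Cfa.10086.1.A1_at read 4.03 and 4.33 in 3D and 4.08 and 4.26 in 2D (difference 0.01, limma adjusted p = 0.982). In replicate 1 PER3 was higher in 3D, by 0.27 on the first and by 1.32 on the second, where the values were 1.0 in 3D and -0.32 in 2D. On both probe sets the replicate 1 values lay below the lower quartiles of these arrays (3.38 in 3D, 3.52 in 2D).

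The cryptochromes CRY1 and CRY2 are the partners of the period proteins and the stronger repressors of CLOCK and BMAL1. CRY1 read 8.72 and 9.18 in 3D and 9.00 and 9.03 in 2D. The 3D arrays lay on either side of the 2D arrays, and the difference was -0.065 (SE 0.164, 95% interval -0.465 to 0.335, limma adjusted p = 0.872). CRY2 read 6.67 and 6.57 in 3D and 6.64 and 6.56 in 2D, a difference of 0.02 (SE 0.103, 95% interval -0.232 to 0.272, limma adjusted p = 0.945). In replicate 1 CRY1 was lower in 3D, with 7.06 in 3D and 7.41 in 2D, and CRY2 was higher, with 4.67 in 3D and 3.73 in 2D.

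CLOCK, the histone acetyltransferase and DNA-binding activator of the loop, read 6.37 and 6.55 in 3D and 6.69 and 6.40 in 2D on CfaAffx.4125.1.S1_s_at, and 5.62 and 5.85 in 3D and 6.04 and 5.66 in 2D on CfaAffx.4136.1.S1_s_at. The groups overlapped on both. The differences were -0.085 (95% interval -0.42 to 0.251, limma adjusted p = 0.786) and -0.115 (95% interval -0.505 to 0.275, limma adjusted p = 0.743). The same probe sets went opposite ways in replicate 1. CfaAffx.4125.1.S1_s_at read 4.90 in 3D and 2.98 in 2D, a difference of 1.92, the highest of the 19. Its 2D value lay below the lower quartile of that array (3.52), so that the size of this difference is uncertain. CfaAffx.4136.1.S1_s_at read 4.96 in 3D and 5.95 in 2D, a difference of -0.99.

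The PAR bZIP activators TEF and HLF did not pass. TEF read 5.84 and 6.11 in 3D and 5.88 and 5.89 in 2D, a difference of 0.09 (SE 0.124, 95% interval -0.212 to 0.392, limma adjusted p = 0.74). HLF, best known from the liver and from blood stem cells, read 5.38 and 5.36 in 3D and 5.35 and 5.36 in 2D, below the arrays' lower quartiles, with a difference of 0.015 (SE 0.0966, 95% interval -0.221 to 0.251, limma adjusted p = 0.959). In replicate 1 TEF was lower in 3D (2.23 in 3D, 3.15 in 2D) and HLF higher (3.75 in 3D, 2.20 in 2D). Both TEF values and the 2D value of HLF lay below the lower quartiles of the replicate 1 arrays (3.38 in 3D, 3.52 in 2D). The size of these differences is therefore uncertain.

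For the 8 genes other than NFIL3, the precision of the test bounds what could have been missed in the array values. The 95% intervals of their 16 probe sets lay between -0.505 and 0.519 on the log2 scale, or between 0.705-fold and 1.43-fold, taken probe set by probe set. The smallest difference that passed anywhere on the array was 0.455 in size, and the median size of those that passed was 0.77. On replicates 2 and 3 changes of 2-fold in the values of these probe sets therefore lay outside all 16 intervals. Differences smaller than 0.455 passed for no probe set with 2 arrays per group. PER3, HLF and the dimmer PER2 probe set lay below the arrays' lower quartiles. For them the size of any difference in transcript is uncertain, and the intervals bound the array values only. The widths of the 16 intervals rest on 2 arrays per group and on a spread that limma draws in part from all other probe sets. They carry the assumption that both show the spread of a culture condition.

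Differences in the replicate 1 pair were wider, on its own scale. Of the 19 probe sets, 8 differed by at least 1 in size there (42.1%, against 33.9% of all probe sets), 13 were lower in 3D and 6 higher, and the median difference was -0.43, against -0.14 over all probe sets. The sign was the same as on replicates 2 and 3 for 12 of the 19 probe sets (63.2%, against 54.4% of all probe sets).

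The probe set of NFIL3 that passed, CfaAffx.4141.1.S1_s_at, was compared with all other genes of a single symbol (those beginning with LOC aside) for its profile over the 4 arrays of replicates 2 and 3, after subtraction of each probe set's own mean. The nearest 5 genes by root mean square distance, each at its nearest probe set, were GFOD1 (0.0187), RRP7 (0.0349), ARG1 (0.0384), WDR74, a factor of ribosome assembly (0.0432), and TGFBR2, the type II receptor of TGF-beta (0.0439). ARG1, WDR74 and TGFBR2 have 3, 1 and 5 other probe sets. Those matched for ARG1 and TGFBR2 are not the brightest of their genes, and that of ARG1 did not pass (limma adjusted p = 0.0643). GFOD1 read 7.56 and 7.50 in 3D and 8.06 and 8.38 in 2D. With 4 arrays such likeness is a description of shape, and in replicate 1 the same probe sets differed by values from -1.68 for RRP7 to 0.05 for ARG1.

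Among the other factors of the clock loop, 0 of 8 measured genes passed, against 7.28% of all genes. Their median difference was -0.045, and 2 had an unadjusted limma p under 0.05, against 23.5% of all probe sets. The list was chosen by function, and NR1D1, RORA and CIART had no single-symbol probe set. ARNTL, the partner of CLOCK, read 7.43 and 7.50 in 3D and 7.43 and 7.32 in 2D on its brightest probe set (difference 0.09, SE 0.103, limma adjusted p = 0.681), and its other probe sets differed by 0.295 and 0.16. NPAS2, which can stand in for CLOCK, read 7.98 and 7.81 in 3D and 8.10 and 8.21 in 2D (difference -0.26, limma adjusted p = 0.236).

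BHLHE40 and BHLHE41, also called DEC1 and DEC2, are repressors that compete with CLOCK and BMAL1 for DNA. BHLHE40 read 11.66 and 11.79 in 3D and 11.36 and 11.48 in 2D (difference 0.305, SE 0.109, limma adjusted p = 0.163), with 0.18 and 0.30 on its other probe sets and -0.88, -0.46 and -1.44 on the 3 in replicate 1. BHLHE41 read 8.61 and 9.39 in 3D and 9.43 and 9.51 in 2D (difference -0.47, SE 0.245, limma adjusted p = 0.32), with 1 of the 3D arrays far below the other. NR1D2, which encodes the nuclear receptor REV-ERB beta, lay below the arrays' lower quartiles on all 5 probe sets, and its differences ran from -0.17 to 0.10.

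Of 26 genes for kinases, phosphatases, ubiquitin ligases and cofactors that act on clock proteins, 0 passed, each taken at its brightest probe set. The share of all genes that passed was 7.28%. An unadjusted limma p under 0.05 was found for 2 of the 26, against 23.5% of all probe sets. The median difference of the 26 was -0.0075, against -0.01 for all genes. CSNK1D, a kinase that marks PER proteins for breakdown, read 10.28 and 10.02 in 3D and 10.04 and 10.21 in 2D (difference 0.025, limma adjusted p = 0.946). Its relative CSNK1E read 7.29 and 7.15 in 3D and 7.35 and 7.03 in 2D (difference 0.03, limma adjusted p = 0.94). PPP1CA, a catalytic subunit of protein phosphatase 1, and NONO, an RNA-binding partner of PER proteins, each passed on another of their probe sets. PPP1CA differed by 0.54 there (limma adjusted p = 0.0453) and by 0.195 on the brighter one, and NONO by -1.075 (limma adjusted p = 0.0293) and by 0.235 on the brighter one. In replicate 1 the probe sets that passed differed by 0.71 for PPP1CA and by 0.1 for NONO, and the brighter ones by 1.12 and 0.71.

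**Figure D3:**
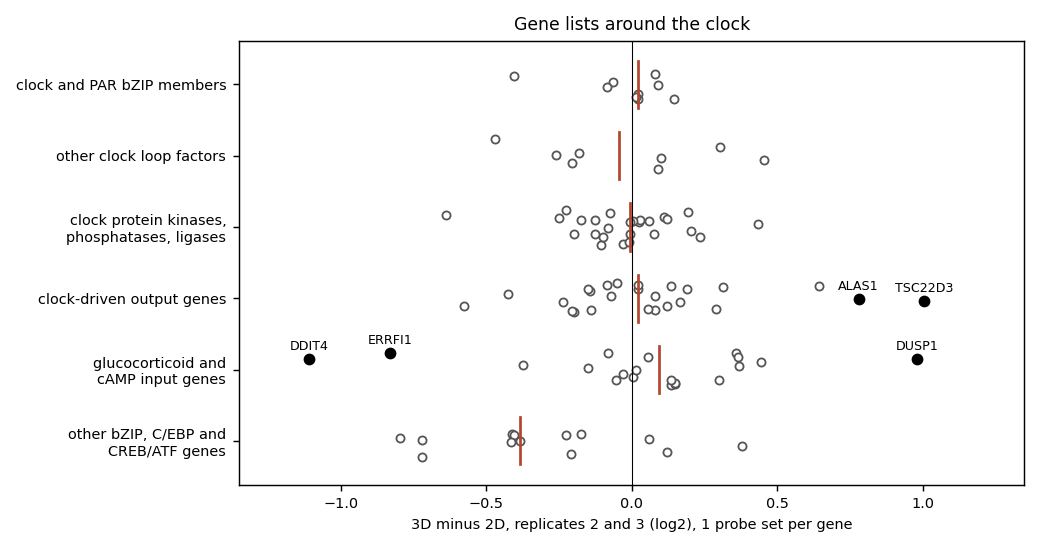
Difference 3D minus 2D on replicates 2 and 3 (log2, horizontal axis) of each measured gene, at its probe set with the highest mean, in 6 gene lists (rows; vertical scatter only separates points). Filled and named points passed the limma test over all probe sets, open points did not, and red lines are list medians; the 5 genes that passed lie in the output list (TSC22D3, ALAS1) and the input list (DUSP1, ERRFI1, DDIT4).

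In the list of genes known as clock outputs, 2 of 25 passed, both higher in 3D (8%, against 7.28% of all genes), with a median of 0.02 against -0.01 over all genes. An unadjusted limma p under 0.05 was found for 6 of the 25, against 23.5% of all probe sets. TSC22D3, also called GILZ, a glucocorticoid target whose level follows the day in many tissues, rose to 10.22 and 10.03 in 3D, against 9.07 and 9.17 in 2D. The difference was 1.005 (SE 0.114, limma adjusted p = 0.0127), and 0.71 in replicate 1. The second TSC22D3 probe set differed by 0.345 and did not pass, and differed by -0.05 in replicate 1. ALAS1, the first enzyme of haem synthesis, rose to 11.53 and 11.20 in 3D, against 10.47 and 10.70 in 2D (difference 0.78, SE 0.15, limma adjusted p = 0.0395), but was lower in 3D in replicate 1, with 8.90 in 3D and 9.39 in 2D.

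The list of glucocorticoid and cAMP input genes held both genes that carry these signals, which reset PER1, and genes that answer them. In it 1 of 20 was higher, 2 were lower and 17 did not pass (15% called, against 7.28% of all genes). The median was 0.095, and 7 had an unadjusted limma p under 0.05, against 23.5% of all probe sets. DUSP1, a phosphatase of MAP kinases, rose to 8.81 and 9.05 in 3D, against 7.78 and 8.12 in 2D (difference 0.98, SE 0.154, limma adjusted p = 0.0241). Of 3 DUSP1 probe sets 1 passed. The others were also higher in 3D on replicates 2 and 3, by 0.225 and 0.55, and did not pass (limma adjusted p = 0.241 and 0.118). In replicate 1 the DUSP1 probe set that passed differed by 0.05, and the others by -1.17 and -0.31. ERRFI1, an inhibitor of the EGF receptor, fell to 10.89 and 10.96 in 3D, against 11.74 and 11.77 in 2D (difference -0.83, SE 0.0988, limma adjusted p = 0.0134). DDIT4, an inhibitor of mTORC1 signalling, fell to 7.38 and 7.71 in 3D, against 8.68 and 8.63 in 2D (difference -1.11, SE 0.136, limma adjusted p = 0.014). Both fell on 2 of 2 probe sets. In replicate 1 the ERRFI1 probe sets differed by -2.16 and -2.56, and those of DDIT4 by -3.81 and -1.79. The 3D value behind the -3.81 was 3.05, below the lower quartile of that array (3.38), so that its size is uncertain.

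The list of other C/EBP, CREB/ATF, BATF and MAF genes held 13 measured members, of which 0 passed (7.28% of all genes did). In this list 7 had an unadjusted limma p under 0.05 (23.5% of all probe sets did), and 10 had a difference below 0. Both counts include CEBPZ, with a difference of -0.72. Its median was -0.385, against -0.01 over all genes, and -0.305 without CEBPZ, which shares a name but not the bZIP domain. The lowest limma adjusted p in the list was 0.0812, and the differences ran from -0.795 to 0.38. In replicate 1 the list's median difference was -0.3, against -0.14 over all probe sets.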

How the data were processed

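Affymetrix canine arrays of 3 samples in 3D and 3 in 2D were used. The deposited values are on the log2 scale, and RMA and limma are named for them, without versions, in the submitters' processing notes. What put the replicate 1 columns on another scale is not stated there. No depth applies to arrays, whose number limits the precision. The labels call the replicates biological.

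Of all probe sets, 111 controls were left out. The platform annotation gave 1 symbol for 29254 probe sets and several for 439, while 13231 are unnamed here. The gene table of the dog assembly UU_Cfam_GSD_1.0 was used for names only. No positions are given, since the build behind the probe sets is not stated in the labels, and sequences were not used here.

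Differences were tested with limma 3.58.1 (lmFit, eBayes; R 4.3.3) on the 4 arrays of replicates 2 and 3, two-sided, with Benjamini-Hochberg adjustment over 42924 probe sets, a threshold of 0.05, no filter on level and no block. Intervals are limma's at 95%. Genes were represented by the probe set that was highest on average over these 4 arrays. The fit was tested on simulated data. Tables and plots were made in Python 3.11.15 (pandas 2.3.3, numpy 2.4.6, matplotlib 3.10.9).

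All probe sets of the members were named. From the other lists the genes that passed were named (at most 6 per list), with ARNTL, NPAS2, NR1D2, BHLHE40, BHLHE41, CSNK1D and CSNK1E in any case; PPP1CA and NONO were named after their values were seen, and 3 marker genes of highest mean could be named per marker list. The members and lists were chosen with earlier results of these data known. Alternatives were a replicate block, all 6 arrays, median centring, other priors, a filter on dim probe sets, averaged probe sets of a gene, and leaving out each array. Replicate numbers were not taken to pair the samples: the deviations of 3D replicate 2 and 2D replicate 2 from their group means correlated at 0.00127 across probe sets, which are not independent.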

Additional observations from a re-analysis of the deposited data

How the results depend on the processing

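Among the 19 clock and PAR bZIP probe sets 0 were higher in 3D in every fit run, and of their 9 genes 0 were higher and 0 lower. The single lower probe set, CfaAffx.4141.1.S1_s_at of NFIL3, still passed with median centring and without dim probe sets (1 lower each, lowest limma adjusted p = 0.0437). The count was 0 under trend and robust priors, with the replicate block, with all 6 arrays without a replicate block, with all 6 arrays and the replicate block, and with all 6 arrays quantile normalized and the replicate block, and 0 to 0 when 1 of the 4 arrays was left out. The log2 difference of that probe set ranged from -0.953 to -0.485 over these 11 fits, and those of the other NFIL3 probe sets from -0.56 to -0.40 and from -0.88 to -0.24. The number of genes that passed in the 5 surrounding lists was 5 in the main comparison and 7 with a gene's probe sets averaged. It was 0 with the replicate block, 0 with all 6 arrays under each of the 3 treatments, and 0 to 0 with 1 array left out. In those same fits 0 of 42924 probe sets passed on the whole array. At an unadjusted p under 0.05 there were 8325 with the replicate block, 105 with all 6 arrays without a block, 2723 with all 6 arrays and the block, 3517 with quantile normalization and the block, and 4683 to 10892 with 1 array left out. The signs of probe sets that did not pass were less stable: 7 of 19 changed sign with all 6 arrays (6 after quantile normalization), 2 to 5 with 1 array left out, 7 in the replicate 1 pair and 2 with median centring. The replicate block and the trend and robust priors changed no sign. With 2 arrays per group an exact permutation test of 1 probe set cannot give a two-sided p below 0.333. No value of HLF, of PER3 or of the dimmer PER2 probe set was obtained without dim probe sets, since these were left out there.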
